A study of Mus musculus with 6 samples.

Results

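Genes that cells switch on in response to interferon, with the Irf and Stat factors that drive them, were followed in the tibialis anterior (TA) muscle, which flexes the ankle and consists mainly of fast fibres. The group was chosen by gene name as a list of 43 genes, and all 43 were found among the 54232 genes of the count table, each once and each with at least 10 counts over the 6 libraries. All 43 also passed the expression filter of the test, as did 14335 genes in all. The D51 group comprised 3 libraries (D51 4, D51 5 and D51 6) from mice with the genotype Delta 51, in which exon 51 of Dmd, the dystrophin gene, is deleted. The WT group comprised 3 libraries (WT 1, WT 2 and WT 3) from wild-type mice. Both groups were C57BL6 mice aged 1 month, and no drug or other agent is named for either. The labels call the libraries biological replicates, but the sources used here do not say how many lines or litters they represent. RNA was taken from muscle tissue, so RNA of fibres and of all other cells was read together.

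Interferons are secreted proteins that act in families. Type I interferons signal through the receptor chains Ifnar1 and Ifnar2 to a complex that contains Stat2 and Irf9 and binds the interferon-stimulated response element (ISRE) of antiviral genes. Interferon gamma signals through Ifngr1 and Ifngr2 to gamma-activated sites (GAS) in its target genes, and it is the best known inducer of the Gbp and Irg families of GTPases that act on intracellular pathogens. In muscle these genes can be read in fibres, vessels and infiltrating leukocytes alike.

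Dmd itself was at 47.7, 46.4 and 51.1 CPM (counts scaled to the library total) in D51 4, 5 and 6, against 235, 249 and 266 CPM in WT 1, 2 and 3, so the transcript followed the labels in every library (log2 fold change -2.37, SE 0.0944, edgeR adjusted p = 2.77e-05). CPM here carry TMM scaling (the trimmed mean of M values), whose factors were 1.04 to 1.19 in D51 and 0.869 to 0.898 in WT libraries. Totals ranged from 15681945 to 21020353 counts per library, and 1 CPM stood for 13.96 to 23.4 counts. Scaling to library size alone moved log2 fold changes by a median of 0.35, so changes below are relative to the bulk of genes. Where a library left out, a scaling or another tool is named, the value in parentheses after it is the log2 fold change of that fit. Fast-fibre genes, 6 in number, summed to 63301, 61920.1 and 94216 CPM in D51 4, 5 and 6, and to 101050, 98736 and 100308 CPM in WT 1, 2 and 3, so both groups read as muscle.

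Of the 43 genes, 15 rose and 1 fell in D51 (adjusted p under 0.05 in edgeR's quasi-likelihood test, with adjustment over all genes tested). These are 34.9% and 2.33% of the group, where 16.1% of all genes tested were called higher and 11.9% lower. The median log2 fold change, D51 over WT, was 0.49 over the 43 genes and -0.01 over all genes tested. Every D51 library lay above every WT library in 18 of the 43 genes (41.9%, against 23.8% of all genes tested) and below in 1 (2.33%, against 21.7%). With 3 libraries a group, the smallest p an exact permutation test of one gene can reach is 0.1, so calls rest on the fit across all genes. Under scaling to library size alone 22 were called higher and 0 lower, where 37.6% and 2.33% of all genes tested were. Leaving out WT 1, WT 2 or D51 5 brought the count of higher genes to 9, 8 or 9, in fits where 13.7%, 9.12% and 11.2% of all genes tested were called higher. In the same fits 1, 0 and 0 of the 43 genes were called lower, where 8.34%, 4.49% and 5.21% of all genes tested were. Without D51 6, 17 were called higher and 0 lower, where 18% and 14.6% of all genes tested were. Of the 15 rises, 8 were called in every alternative in which the gene was tested, namely the 5 Oas genes, Dhx58, Irf8 and Ifi27l2a.

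**Figure D1:**
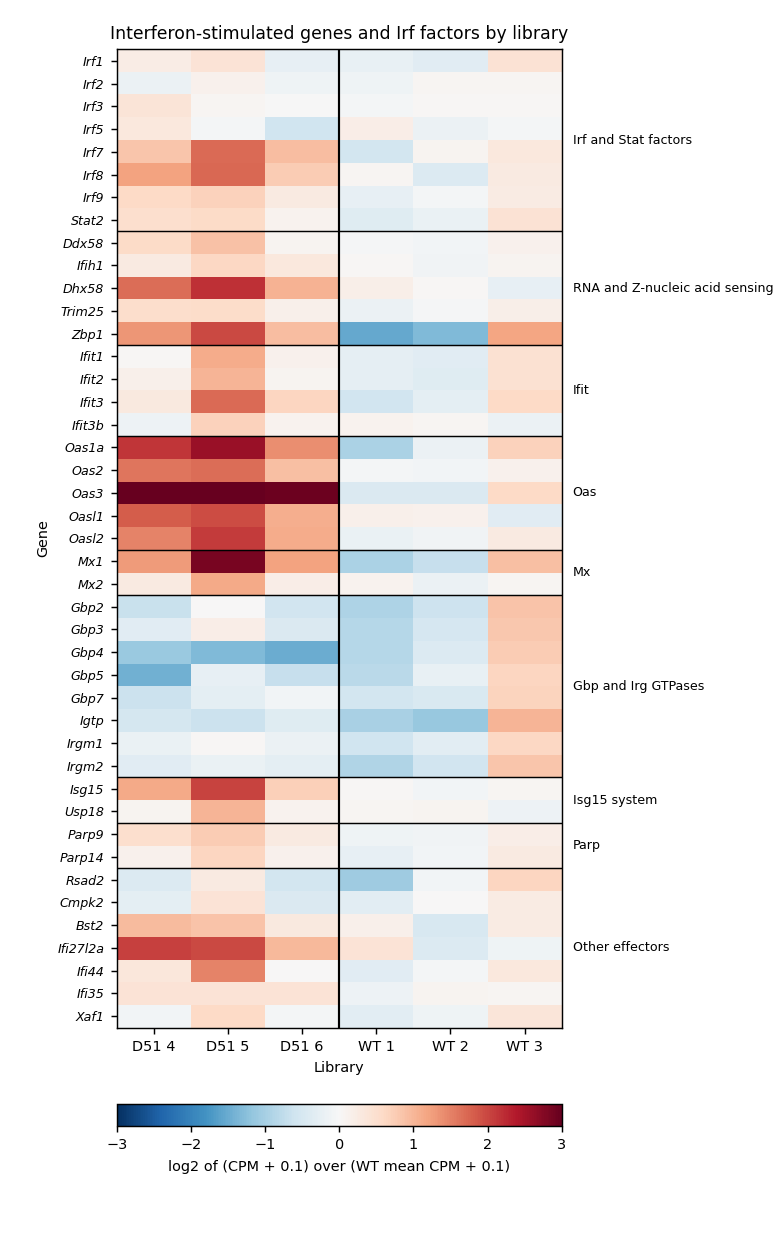
Heat map of the 43 genes (rows, grouped by role) in the 3 D51 libraries (left) and the 3 WT libraries (right). Colour is the log2 ratio of CPM + 0.1 to the WT mean CPM + 0.1, and stops at 3, which Oas3 exceeds in D51 4 and D51 5. Oas genes are red in all 3 D51 libraries, whereas the Gbp and Irg rows are red in WT 3.

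Promoter letters were read for the factors named above. RefSeq (GRCm38.p6) gave windows of 250 bases before to 50 after the start for 33 of the 43 genes, 38 windows in all. The ISRE core searched was GAAANNGAAA and the GAS core TTCNNNGAA, on both strands, and 24 of all 32851 windows hold overlapping matches of both. The ISRE core was in 19 of the 38 windows (50%), against 3.44% of all windows, and the GAS core in 11 (28.9%), against 8.3%. The group was composed of genes known for interferon induction, so this is a description of the list. Of the genes with a window, 4 of 10 called higher and 15 of the 23 others held the ISRE core, including 7 of 7 GTPases with a window. The GAS core was in 3 of the 10, 8 of the 23 and 4 of the 7. A match does not show binding. The windows of the 4 called genes with an ISRE core are printed 5′ to 3′ on the gene's strand, to show how near the start it lies, with the core in capitals.
Oas3, chr5:120777610-120777909 (- strand): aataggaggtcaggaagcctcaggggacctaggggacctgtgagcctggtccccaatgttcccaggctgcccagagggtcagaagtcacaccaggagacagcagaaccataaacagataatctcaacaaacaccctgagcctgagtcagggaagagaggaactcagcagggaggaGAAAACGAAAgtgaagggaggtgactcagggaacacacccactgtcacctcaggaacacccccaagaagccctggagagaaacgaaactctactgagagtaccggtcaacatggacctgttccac
Oas1a, chr5:120907476-120907775 (- strand): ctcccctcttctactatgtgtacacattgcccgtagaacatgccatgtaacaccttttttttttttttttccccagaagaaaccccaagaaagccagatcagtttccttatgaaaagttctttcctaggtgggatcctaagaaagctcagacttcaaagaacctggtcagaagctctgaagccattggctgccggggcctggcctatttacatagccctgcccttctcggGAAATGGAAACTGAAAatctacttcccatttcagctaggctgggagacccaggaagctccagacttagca
Isg15, chr4:156200769-156201068 (- strand): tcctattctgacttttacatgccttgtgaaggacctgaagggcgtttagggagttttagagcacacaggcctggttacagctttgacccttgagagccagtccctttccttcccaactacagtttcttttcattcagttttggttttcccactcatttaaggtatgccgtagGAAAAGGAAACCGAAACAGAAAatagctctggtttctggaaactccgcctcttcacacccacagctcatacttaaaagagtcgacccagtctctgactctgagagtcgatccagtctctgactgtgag
Ifih1, chr2:62646206-62646505 (- strand): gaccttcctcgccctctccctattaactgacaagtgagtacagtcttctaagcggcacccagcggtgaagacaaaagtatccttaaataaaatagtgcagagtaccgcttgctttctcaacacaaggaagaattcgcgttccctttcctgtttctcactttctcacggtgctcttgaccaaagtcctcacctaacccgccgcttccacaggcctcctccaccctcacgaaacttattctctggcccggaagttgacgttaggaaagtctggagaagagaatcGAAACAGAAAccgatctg

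In Isg15, 3 overlapping cores form a run that begins 78 bases before the start, and in Oas1a 2 form a run that begins 20 bases before it. The core of Oas3 begins 75 bases before the start. That of Ifih1, whose change was the smallest of the 4, lies after it, beginning at 32 bases. Short sites, with 10 bases on either side, are given below for the 7 GTPases with a window, to set their letters beside those of Oas3 and Oas1a. None of the 7 was called, and Gbp4, the GTPase that was called, had no window. Of the other called Oas genes, Oasl1 and Oasl2 had windows without an ISRE core, and Oas2 had no window. The GTPase sites are followed by those of Ifit3 and Ifit3b, the pair whose transcripts share sequence. Capitals again mark the core, which reads as its reverse complement where it starts with TTTC.
Gbp2, chr3:142620594-142620623 (+ strand): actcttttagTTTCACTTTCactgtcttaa
Gbp3, chr3:142559989-142560024 (+ strand): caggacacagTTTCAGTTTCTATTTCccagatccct
Gbp5, chr3:142496759-142496788 (+ strand): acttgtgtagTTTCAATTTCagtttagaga
Gbp7, chr3:142530273-142530302 (+ strand): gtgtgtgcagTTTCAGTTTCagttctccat
Igtp, chr11:58199512-58199541 (+ strand): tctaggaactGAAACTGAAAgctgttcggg
Irgm1, chr11:48871425-48871460 (- strand): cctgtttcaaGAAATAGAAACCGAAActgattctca
Irgm2, chr11:58214903-58214932 (+ strand): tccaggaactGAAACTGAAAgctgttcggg
Ifit3, chr19:34583363-34583392 (+ strand): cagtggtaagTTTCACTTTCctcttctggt
Ifit3, chr19:34583397-34583426 (+ strand): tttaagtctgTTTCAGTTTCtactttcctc
Ifit3b, chr19:34607759-34607788 (+ strand): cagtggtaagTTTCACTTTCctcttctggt
Ifit3b, chr19:34607793-34607822 (+ strand): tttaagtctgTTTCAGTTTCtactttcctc

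The Ifit3 and Ifit3b sites are printed from separate places on chromosome 19, and both pairs of 30 bases are the same letter for letter.

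Where 16.1% of all genes tested were called higher, the oligoadenylate synthetase (Oas) family rose as a whole, 5 of 5 genes. Its log2 fold changes ran from 1.47 to 4.58. These enzymes sense double-stranded RNA and make short oligoadenylates, while Oasl1 and Oasl2 belong to the family's Oas-like branch. Oas3 stood at 1.97, 4.11 and 1.51 CPM in D51 4, 5 and 6, against 0.0553, 0.0548 and 0.215 CPM in WT 1, 2 and 3. The WT libraries held only 1, 1 and 3 counts of it, so its 23.9-fold rise has a wide interval, from 8.52 to 67.0 (log2 fold change 4.58, SE 0.646, edgeR adjusted p = 0.00257). Without WT 3 the log2 fold change was 5.37. The groups did not overlap, and the lowest D51 library was D51 6.

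Oas2, the most precisely measured of the family, was at 10.7, 11.2 and 6.54 CPM in D51 4, 5 and 6 and at 3.32, 3.23 and 3.796 CPM in WT 1, 2 and 3 (2.76-fold, log2 fold change 1.47, SE 0.227, edgeR adjusted p = 0.00358). Oasl2 was the most abundant by CPM, at 14.2, 21.7 and 11.01 CPM in D51 4, 5 and 6 and 4.37, 4.66 and 6.02 CPM in WT 1, 2 and 3 (log2 fold change 1.65, SE 0.262). Each D51 library held more than any WT library for both genes. Oas1a averaged 3.10 ± 1.26 CPM in D51 and 0.633 ± 0.406 CPM in WT (SD, n = 3 each), a log2 fold change of 2.35 (SE 0.484). Oasl1 averaged 1.45 ± 0.455 CPM in D51 and 0.389 ± 0.0889 CPM in WT, a log2 fold change of 1.87 (SE 0.364). D51 5 was the highest and D51 6 the lowest D51 library for all 5 genes. Oas1a shares 57.6% of its transcripts' 50-base words with other genes, mainly Oas1g, so its counts may be split between them, whereas Oas2, Oas3, Oasl1 and Oasl2 share 0.31% or less. On chromosome 5 (GRCm38), Oas2, Oas3 and Oas1a lie together between 120730333 and 120907521, and Oasl2 and Oasl1 between 114896936 and 114937915.

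**Figure D2:**
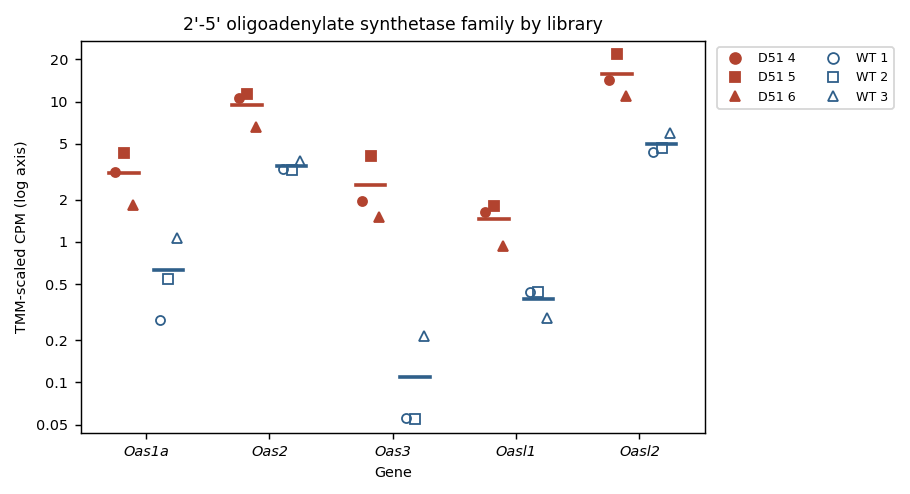
TMM-scaled CPM (log axis) of the 5 Oas family genes, with the D51 libraries as filled symbols on the left and the WT libraries as open symbols on the right of each gene. Bars are group means over 3 libraries. No D51 symbol falls among the WT symbols, and the gap is widest for Oas3.

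Transcription factors of the response were divided. Of 8 genes, 3 rose (37.5%, against 16.1% of all genes tested) and 0 fell (0%, against 11.9%). Irf8, a factor of the macrophage and dendritic cell lineages, stood at 13.4, 19.4 and 9.81 CPM in D51 4, 5 and 6 and at 5.98, 4.33 and 7.02 CPM in WT 1, 2 and 3 (2.48-fold, log2 fold change 1.31, SE 0.273, edgeR adjusted p = 0.0106). Irf7, the amplifier of type I interferon production, stood at 8.17, 15.01 and 8.78 CPM in D51 4, 5 and 6 and at 3.10, 4.82 and 5.73 CPM in WT 1, 2 and 3 (log2 fold change 1.24, SE 0.298). Its adjusted p was 0.018, and 0.0602 without WT 2 (edgeR, 1.28). Irf9, the DNA-binding partner of Stat2, averaged 14.3 ± 2.06 CPM in D51 and 9.86 ± 1.73 CPM in WT (SD, n = 3 each; log2 fold change 0.54, SE 0.164). D51 6 (12.0 CPM) and WT 3 (11.7 CPM) nearly met for Irf9, and its call ended without WT 1 (0.43), WT 2 (0.51), D51 4 (0.51) or D51 5 (0.47).

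The other 5 factors did not pass the test. Stat2 averaged 15.9 ± 2.71 CPM in D51 and 11.9 ± 3.66 CPM in WT. Its log2 fold change was 0.43 (95% interval -0.08 to 0.94), and it was called without WT 3 (0.69). Irf1, the early interferon gamma target, was at 12.9, 14.6 and 9.29 CPM in D51 4, 5 and 6 and 9.41, 8.71 and 14.97 CPM in WT 1, 2 and 3, so WT 3 exceeded every D51 library (log2 fold change 0.16, 95% interval -0.39 to 0.72). Irf3, the constitutive factor downstream of nucleic acid sensors, had a log2 fold change of 0.15 (95% interval -0.15 to 0.45). Irf2, an antagonist of Irf1, was at -0.06 (-0.32 to 0.20), and turned to 0.01 without D51 4. Irf5, a factor of Toll-like receptor signalling, was at -0.05 (-0.56 to 0.45), and turned to 0.06 without WT 1 and 0.15 without D51 6. Scaled to library size alone, Irf2 and Irf5 were at 0.30 and 0.31. Irf5 shares 14.1% of its exon bases with Tnpo3 on the opposite strand, and the sources used here do not give the strand setting of the counting.

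**Figure D3:**
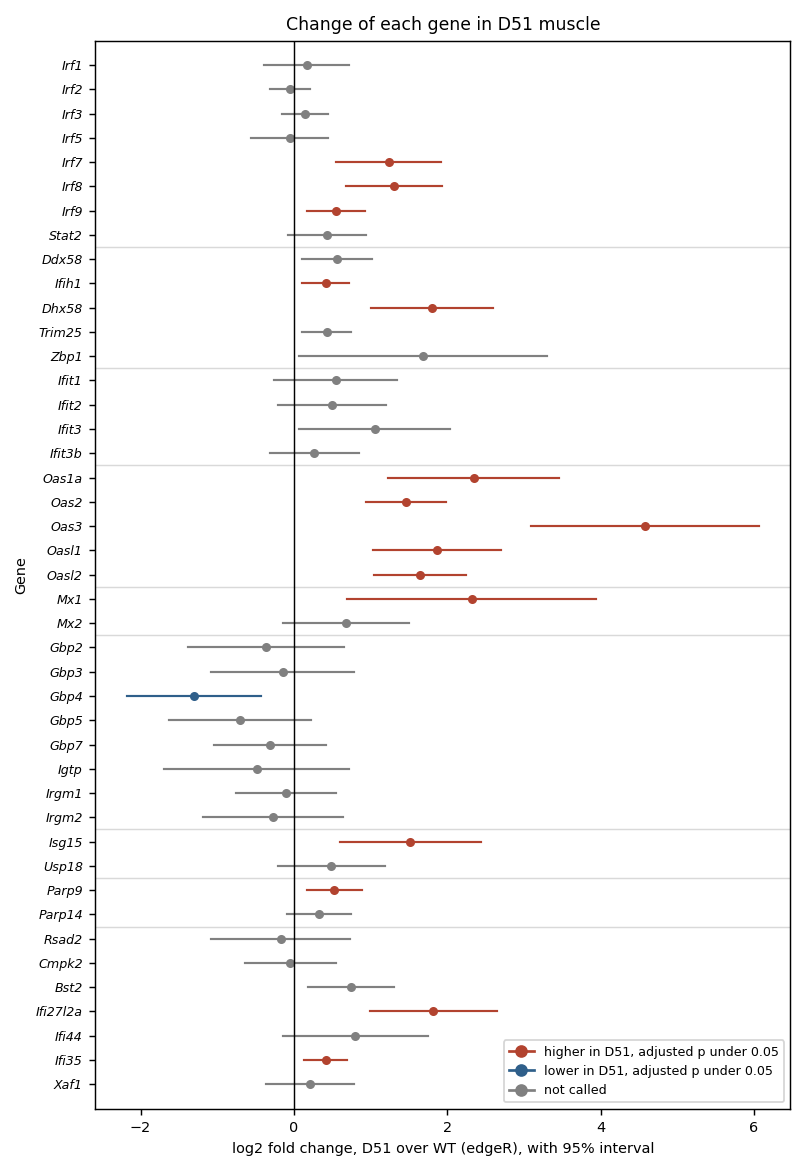
Log2 fold change, D51 over WT, of each of the 43 genes with its 95% interval from the edgeR fit, ordered by role from top to bottom. Red marks the 15 genes called higher, blue the 1 called lower (Gbp4) and grey the 27 not called. The 5 Oas intervals lie above 0, and the 8 Gbp and Irg point estimates lie below it.

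Sensors of foreign RNA followed a similar division. Dhx58 (LGP2), a helicase that tunes the other members of its family, was at 3.29, 4.77 and 2.08 CPM in D51 4, 5 and 6 and 1.11, 0.986 and 0.788 CPM in WT 1, 2 and 3 (3.49-fold, log2 fold change 1.80, SE 0.346, edgeR adjusted p = 0.00804). Ifih1 (MDA5) averaged 13.3 ± 1.87 CPM in D51 and 10.01 ± 0.625 CPM in WT (SD, n = 3 each), a log2 fold change of 0.42 (SE 0.133). Its edgeR adjusted p of 0.0497 was at the edge of the threshold, and the call ended without WT 1 (0.42), WT 2 (0.36), WT 3 (0.45), D51 4 (0.48) or D51 5 (0.31). It also ended in DESeq2 (0.42), limma-voom (0.41), with DESeq2 size factors (0.42) and with a filter of 10 counts (0.41). Ddx58 (RIG-I) was at 15.4, 19.0 and 10.8 CPM in D51 4, 5 and 6 and 9.96, 9.70 and 11.2 CPM in WT 1, 2 and 3, and was not called (log2 fold change 0.56, 95% interval 0.10 to 1.02). Trim25, the ubiquitin ligase known for acting on RIG-I, was likewise not called (log2 fold change 0.43, 95% interval 0.11 to 0.75). D51 6 was the only D51 library to overlap WT for these 2 genes, and both were called without it (0.75 for Ddx58 and 0.54 for Trim25). Zbp1, a sensor of Z-form nucleic acids, was at 2.22, 3.59 and 1.66 CPM in D51 4, 5 and 6 and at 0.221, 0.274 and 2.01 CPM in WT 1, 2 and 3. WT 3 alone among WT libraries reached the D51 range. Zbp1 had a log2 fold change of 1.68 and was not called, whereas without WT 3 it was called at 3.297.

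Among the effectors the Isg15 system, Mx genes and Parp genes each had 1 of 2 genes called higher. Of all genes tested, 16.1% were called higher. Isg15, a ubiquitin-like modifier, stood at 1.80, 3.41 and 1.30 CPM in D51 4, 5 and 6 and at 0.775, 0.712 and 0.788 CPM in WT 1, 2 and 3 (log2 fold change 1.52, SE 0.399, edgeR adjusted p = 0.0253). This call was lost without WT 1 (1.53), WT 2 (1.47), WT 3 (1.54) or D51 5 (1.04). Usp18, which removes Isg15 from proteins and restrains the type I receptor, averaged 2.83 ± 1.15 CPM in D51 and 2.01 ± 0.191 CPM in WT (log2 fold change 0.49, 95% interval -0.21 to 1.19) and was not called. D51 5, at 4.16 CPM, stood apart from D51 4 (2.14 CPM) and D51 6 (2.18 CPM), which were close to the WT libraries (1.79 to 2.14 CPM).

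Mx1, an antiviral dynamin-like GTPase, was at 1.16, 3.59 and 1.09 CPM in D51 4, 5 and 6 and 0.166, 0.219 and 0.859 CPM in WT 1, 2 and 3 (log2 fold change 2.32, SE 0.707, edgeR adjusted p = 0.0425). Its WT counts were 3, 4 and 12, and its call ended without WT 1 (1.92), WT 2 (2.00) or D51 5 (1.53) and in limma-voom (2.36), while without WT 3 it was 3.295. C57BL6-type laboratory mice are known to carry defective alleles of Mx1 and Mx2. Mx2 was not called (log2 fold change 0.68, 95% interval -0.14 to 1.495). Parp9, an ADP-ribosyltransferase that works with the ligase Dtx3l, averaged 18.2 ± 3.17 CPM in D51 and 12.7 ± 1.70 CPM in WT (SD, n = 3 each; log2 fold change 0.53, SE 0.157). Its call ended without WT 1 (0.46), WT 2 (0.47), D51 4 (0.54) or D51 5 (0.40), and 9.40% of its exon bases overlap Dtx3l on the opposite strand. Its neighbour Parp14 was not called (log2 fold change 0.33, 95% interval -0.08 to 0.74).

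Ifi27l2a, a small hydrophobic protein of the Ifi27 family, was at 5.90, 5.60 and 2.75 CPM in D51 4, 5 and 6 and 1.83, 0.986 and 1.22 CPM in WT 1, 2 and 3 (3.53-fold, log2 fold change 1.82, SE 0.359, edgeR adjusted p = 0.00869). Every D51 library lay above every WT library. Ifi35 averaged 9.47 ± 0.0271 CPM in D51 and 7.11 ± 0.644 CPM in WT (SD, n = 3 each; log2 fold change 0.41, SE 0.123). It held the smallest spread within D51 of the 43 genes. Without WT 1 (0.33), WT 2 (0.45), WT 3 (0.44), D51 4 (0.41), D51 5 (0.43) or D51 6 (0.41), and in DESeq2 (0.41), it was not called, and 16.8% of its exon bases overlap Gm11626 on the opposite strand. Bst2 (tetherin), which holds budding virus at the cell surface, was at 10.7, 10.02 and 6.75 CPM in D51 4, 5 and 6 and 6.09, 3.89 and 6.52 CPM in WT 1, 2 and 3. It missed the threshold narrowly (0.74, edgeR adjusted p = 0.0529) and was called without D51 6 (0.92). Ifi44 (log2 fold change 0.80, 95% interval -0.15 to 1.75) and the pro-apoptotic Xaf1 (0.21, -0.37 to 0.78) were not called, and Xaf1 was at -0.05 without D51 5.

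Rsad2 (viperin), which makes a chain-terminating nucleotide, and Cmpk2, a mitochondrial nucleotide kinase that lies beside it on chromosome 12, were not called. Rsad2 was at 11.3, 18.1 and 10.2 CPM in D51 4, 5 and 6 and at 7.14, 14.2 and 23.7 CPM in WT 1, 2 and 3 (log2 fold change -0.17, 95% interval -1.08 to 0.74). Cmpk2 was at 4.62, 7.52 and 4.15 CPM in D51 4, 5 and 6 and at 4.54, 5.70 and 6.73 CPM in WT 1, 2 and 3 (-0.05, -0.64 to 0.55). Among WT libraries, WT 3 was the highest for each. Without WT 3 the log2 fold changes were 0.30 and 0.08, and under library-size scaling 0.19 and 0.32, and no call was made in any of these. Cmpk2 was also above 0 without D51 4 (0.06) or D51 6 (0.11).

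The Ifit family, whose products bind viral RNA, had 0 of 4 genes called, with log2 fold changes from 0.27 to 1.05. Of all genes tested, 16.1% were called higher and 11.9% lower. Ifit3 was at 4.96, 13.4 and 6.44 CPM in D51 4, 5 and 6 and at 2.71, 3.29 and 6.16 CPM in WT 1, 2 and 3 (log2 fold change 1.05, SE 0.429, edgeR adjusted p = 0.103). Its neighbour Ifit3b was at 2.91, 5.29 and 3.48 CPM in D51 4, 5 and 6 and at 3.49, 3.34 and 2.86 CPM in WT 1, 2 and 3 (log2 fold change 0.27, 95% interval -0.31 to 0.85). Ifit1 (log2 fold change 0.54, 95% interval -0.26 to 1.35) and Ifit2 (0.50, -0.20 to 1.21) were alike in sign. D51 5 was the highest of all libraries for the 4 genes, and without it Ifit3b was at -0.01. Ifit3 and Ifit3b share 51.2% and 45.0% of their 50-base words with other genes, mainly each other, so the split of reads between them is uncertain. The 4 genes stand in a row on chromosome 19, between 34550694 and 34650009 (GRCm38).

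The Gbp and Irg GTPases, the families best known as interferon gamma targets, had 0 of 8 genes higher and 1 lower. The share lower, 12.5%, was near the 11.9% of all genes tested, and 16.1% of all genes tested were called higher. All 8 had a negative log2 fold change, from -1.30 to -0.10 (median -0.34). Gbp4 fell to 8.51, 7.39 and 6.54 CPM in D51 4, 5 and 6, against 10.2, 14.1 and 31.7 CPM in WT 1, 2 and 3 (log2 fold change -1.30, SE 0.380, edgeR adjusted p = 0.0365). It was the single gene of the 43 with every D51 library below every WT library. Its call ended without WT 2 (-1.48), D51 4 (-1.41), D51 5 (-1.28) or D51 6 (-1.22), under library-size scaling (-0.95) and in limma-voom (-1.09). Without WT 3 it was -0.71 and called. Gbp4 overlaps Gbp8 and Gbp9 on the same strand of chromosome 5 over 121 bases, and 7.70% of its 50-base words are found in other genes.

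For the other 7 GTPases the groups overlapped, and WT 3 was the highest of all 6 libraries for each. Igtp (Irgm3) was at 9.28, 8.62 and 10.5 CPM in D51 4, 5 and 6 and at 6.81, 6.08 and 27.4 CPM in WT 1, 2 and 3, so WT 3 was 4.26 times the mean of the other WT libraries. Irgm2, the most abundant of the family by CPM, was at 29.4, 32.7 and 30.7 CPM in D51 4, 5 and 6 and at 20.1, 25.1 and 67.5 CPM in WT 1, 2 and 3. Gbp2 was at 9.41, 15.01 and 9.92 CPM in D51 4, 5 and 6 and at 7.86, 9.64 and 27.2 CPM in WT 1, 2 and 3. All D51 libraries lay between WT 3 and the other WT libraries for Igtp and Irgm2, while for Gbp2 D51 4 was below WT 2. The rest were at -0.15 (Gbp3), -0.71 (Gbp5), -0.31 (Gbp7) and -0.10 (Irgm1) on the log2 scale. Gbp5, Gbp7, Gbp3 and Gbp2 stand in a row on chromosome 3, between 142493978 and 142638008 (GRCm38). Summed over the 8 genes, CPM were 109.9, 135 and 122 in D51 4, 5 and 6 and 93.4, 113 and 275 in WT 1, 2 and 3.

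The sign of the GTPase group rested on WT 3. Without it the median log2 fold change was 0.36, and 6 of the 8 genes were above 0. They were Gbp2 (0.38), Gbp3 (0.51), Gbp7 (0.18), Igtp (0.55), Irgm1 (0.34) and Irgm2 (0.44), whereas Gbp5 was at -0.24 and Gbp4 at -0.71. Again 0 of 8 genes was called higher and 1 lower in that fit, in which 12.4% of all genes tested were called higher and 8.37% lower. Under library-size scaling the median was 0.01, with 4 of 8 genes above 0, Gbp3 (0.21), Gbp7 (0.0279), Irgm1 (0.25) and Irgm2 (0.08), and in limma-voom Gbp3 (0.07) and Irgm1 (0.02) were above 0. Igtp and Irgm2 overlap on chromosome 11, and 11.8% and 7.77% of their 50-base words are found in other genes, mainly each other.

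**Figure D4:**
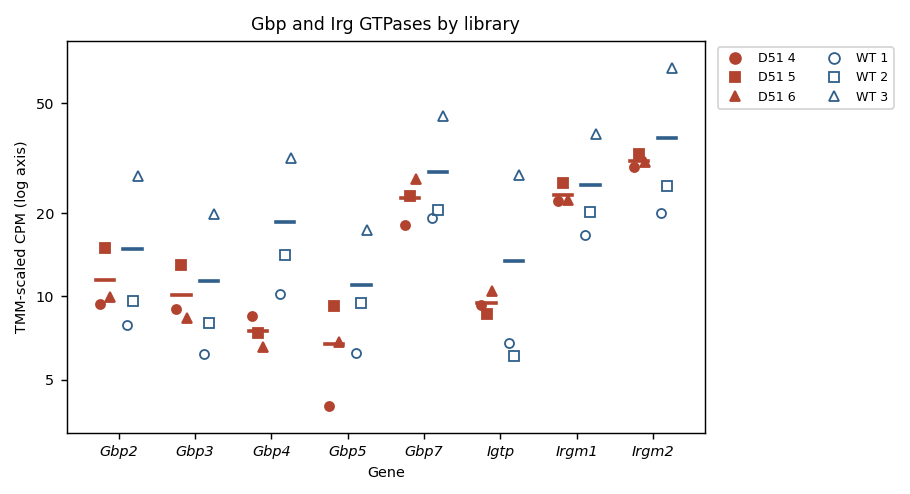
TMM-scaled CPM (log axis) of the 8 Gbp and Irg GTPases, with the D51 libraries as filled symbols on the left and the WT libraries as open symbols on the right of each gene. Bars are group means over 3 libraries. WT 3, the open triangle, is the highest library for all 8 genes.

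Libraries differed in step across the group. D51 5 was the highest D51 library for 35 of the 43 genes (81.4%), where it was highest for 32% of all genes tested, and D51 6 was the lowest for 28 (65.1%, against 39.1%). WT 3 was the highest WT library for 33 (76.7%, against 32.9%), and for 25 of the 35 genes outside the GTPases. These shares are descriptions, since the genes vary together. Among leukocyte markers, the summed CPM of 10 macrophage genes was 693, 1129.8 and 493 in D51 4, 5 and 6 and 109.6, 73.4 and 136 in WT 1, 2 and 3. All 10 of these genes were called higher, where 16.1% of all genes tested were. D51 5 was thus also highest and D51 6 lowest among D51 libraries for macrophage genes. Their part in the changes of the interferon genes was not tested. In whole muscle, more cells of a type and more RNA per cell cannot be told apart.

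The other leukocyte lists were lower in level. For the counts of called genes below, 16.1% of all genes tested were called higher and 11.9% lower. The 5 monocyte genes summed to 35.1, 51.2 and 20.5 CPM in D51 4, 5 and 6 and 6.92, 4.88 and 13.0 CPM in WT 1, 2 and 3, with 2 of 3 tested genes higher. Natural killer cell genes, 5 in number and none tested, summed to 1.198, 0.962 and 0.987 CPM in D51 4, 5 and 6 and to 0, 0.0548 and 0.931 CPM in WT 1, 2 and 3. T cell genes, 7 in number with 2 tested and both higher, summed to 3.08, 2.84 and 3.84 CPM in D51 4, 5 and 6 and to 0.885, 0.658 and 1.58 CPM in WT 1, 2 and 3. The 2 tested genes, Cd4 and Cd3e, made up most of the D51 sums, with means of 1.71 and 0.977 CPM in D51. Cd3d, Cd8a, Cd8b1 and Trac, named after their values were seen, overlapped between the groups and were not tested. Cd3g, likewise untested, had 2, 3 and 3 counts in D51 4, 5 and 6 and 0 in each WT library. Among WT libraries, WT 3 held the highest sum of the monocyte, natural killer and T cell lists, and also of the macrophage and neutrophil lists. It did not for the plasmacytoid dendritic, conventional dendritic and B cell lists. The part of any of these cells in the GTPase level of WT 3 was not tested. The 4 plasmacytoid dendritic cell genes summed to 1.36 to 2.10 CPM in D51 and 0.767 to 1.72 CPM in WT, and the 4 B cell genes to 0.104 to 0.919 CPM in D51 and 0.501 to 0.712 CPM in WT. Of these lists 1 gene was tested, and it was not called. The 5 conventional dendritic cell genes summed to 14.4 to 18.8 CPM in D51 and 13.5 to 14.6 CPM in WT, with 2 of 5 higher. Neutrophil genes, 5 in number, summed to 2.91 to 8.84 CPM in D51 and 0.219 to 1.79 CPM in WT, with 1 of 1 tested gene higher. That gene, Csf3r, was at 3.81, 8.09 and 2.28 CPM in D51 4, 5 and 6 and made up most of the D51 sums. S100a8, S100a9 and Retnlg overlapped between the groups and were not tested, and the defining marker Ly6g was at 0 counts in all 6 libraries. The 5 endothelial genes summed to 297 to 376 CPM in D51 and 422 to 509 CPM in WT, with 3 of 5 lower.

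The interferons themselves were at or near the limit of detection. Of 21 ligand genes, 19 had 0 counts in all 6 libraries, including Ifng, Ifnb1 and the 13 numbered Ifna genes. A count of 0 allows up to 3 counts, or 0.128 to 0.215 CPM depending on the library, and covers counting error only. Ifnab and Ifnz held 1 and 2 counts, all in D51. Expression of ligands below this level was therefore not detectable at this depth.

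Receptors and signalling parts had 5 of 15 tested genes higher (33.3%, against 16.1% of all genes tested) and 1 lower (6.67%, against 11.9%). Ptpn6 (SHP-1), a phosphatase of blood cells that restrains Jak kinases, rose most, to 9.40 ± 3.99 CPM in D51 against 1.38 ± 0.545 CPM in WT (SD, n = 3 each; log2 fold change 2.79, SE 0.380, edgeR adjusted p = 0.00229). Il10rb, shared by the interferon lambda and interleukin 10 receptors, averaged 13.9965 ± 3.55 CPM in D51 and 5.09 ± 0.634 CPM in WT (log2 fold change 1.46, SE 0.206). Socs3, a feedback inhibitor, averaged 7.51 ± 2.94 CPM in D51 and 2.56 ± 1.011 CPM in WT (log2 fold change 1.54, SE 0.350), and its call ended without WT 2 (1.42) or WT 3 (1.34). Ifngr2, the signalling chain of the interferon gamma receptor, was the gene that fell, to 71.1 ± 3.74 CPM in D51 against 88.3 ± 4.20 CPM in WT (log2 fold change -0.31, SE 0.0848). Its call ended without WT 1 (-0.28), WT 2 (-0.34), WT 3 (-0.34), D51 4 (-0.34) or D51 5 (-0.26), and library-size scaling turned it to 0.04.

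Upstream sensors and adaptors had 9 of 17 tested genes higher (52.9%, against 16.1% of all genes tested) and 1 lower (5.88%, against 11.9%). The endosomal RNA receptor Tlr8 rose to 11.6 ± 3.34 CPM in D51, against 1.07 ± 0.408 CPM in WT (SD, n = 3 each; log2 fold change 3.45, SE 0.329, edgeR adjusted p = 6.51e-04), and its relative Tlr7 to 16.7 ± 5.93 CPM in D51, against 2.45 ± 1.07 CPM in WT (log2 fold change 2.80, SE 0.343). Ikbke, a kinase of Irf3 and Irf7, was at 4.43 ± 1.04 CPM in D51 and 1.47 ± 0.122 CPM in WT (log2 fold change 1.59, SE 0.240). Mavs, the mitochondrial adaptor of RIG-I and MDA5, fell to 39.0 ± 4.33 CPM in D51, against 52.0 ± 5.93 CPM in WT (log2 fold change -0.42, SE 0.118). It was no longer called without WT 1 (-0.44), WT 2 (-0.33), D51 5 (-0.36) or D51 6 (-0.38), and under library-size scaling (-0.06).

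A list of other interferon-stimulated genes outside the 43 had a median log2 fold change of 0.65. Of its 55 tested genes, 24 were higher (43.6%, against 16.1% of all genes tested) and 0 lower (0%, against 11.9%). Those with the smallest adjusted p were Slfn2, a Schlafen gene of leukocyte quiescence (log2 fold change 2.60, SE 0.280, edgeR adjusted p = 0.00104), Plac8 (log2 fold change 3.62, SE 0.411) and Epsti1 (log2 fold change 2.68, SE 0.344). Plac8 is also among the monocyte markers above. Of 9 further tested GTPases of the interferon gamma response, 0 were higher and 1 lower, with a median of -0.86. The share lower, 11.1%, was again near the 11.9% of all genes tested. The gene that fell was Gbp9, at 18.4, 24.5 and 17.2 CPM in D51 4, 5 and 6 against 24.7, 28.5 and 39.7 CPM in WT 1, 2 and 3 (log2 fold change -0.63, SE 0.199, edgeR adjusted p = 0.0491). Its call ended without WT 2 (-0.69), WT 3 (-0.42), D51 4 (-0.57) or D51 6 (-0.53), under library-size scaling (-0.27), with DESeq2 size factors (-0.63), with a filter of 1 CPM in 3 libraries (-0.62) and in limma-voom (-0.60). Iigp1, an Irg GTPase named after its values were seen, was at 14.3, 16.1 and 15.5 CPM in D51 4, 5 and 6 and at 10.5, 16.6 and 76.7 CPM in WT 1, 2 and 3, and was not called (-1.16, and 0.17 without WT 3). WT 3 was the highest WT library for 10 of the 10 GTPases of this list, and without it their median was 0.16. Over the 96 tested genes of the 4 lists, 39.6% were higher and 3.12% lower, against 16.1% and 11.9% of all genes tested.

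**Figure D5:**
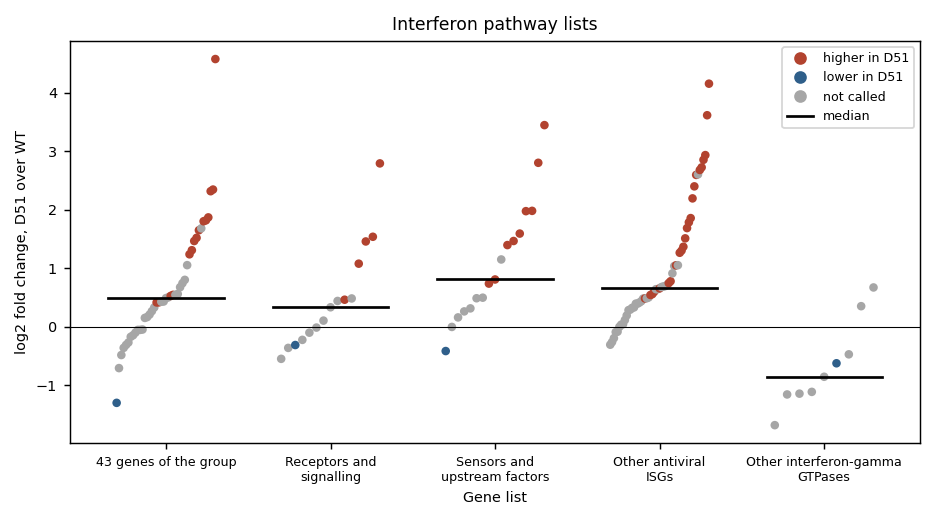
Log2 fold change, D51 over WT, of the 43 genes and of the 4 lists of other interferon pathway genes that had tested members, 1 point a gene, with the median as a bar. Red points are called higher and blue ones lower. The medians are 0.49, 0.33, 0.81, 0.65 and -0.86 from left to right.

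Levels between genes were compared per length, as RPKM, which is the scaled CPM divided by the exon length in kilobases. In D51 the highest means were those of Ifi27l2a (10.3 RPKM), Bst2 (10.1 RPKM) and Irgm2 (8.39 RPKM). In WT they were those of Irgm2 (10.2 RPKM), Irf5 (8.08 RPKM) and Igtp (6.65 RPKM). The WT order rested on WT 3, without which the means were 8.22 RPKM for Irf5, 6.13 RPKM for Irgm2 and 3.19 RPKM for Igtp, and Bst2 (5.52 RPKM) came next after Irgm2. Oas3 was the lowest in WT (0.0153 RPKM), and Mx2 the lowest in D51 (0.334 RPKM). Ifi27l2a thus stood first in D51 with a mean of 2.90 RPKM in WT.

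In the authors' deposited table, 16 of the 43 genes were higher and 1 lower, where 19.1% and 18.8% of its genes were called in those directions. By the authors' deposited table Ddx58, Trim25 and Bst2 were called higher in addition to genes called here, whereas Ifih1 and Ifi35 were not called.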

How the data were processed

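Stranded mRNA libraries of tibialis anterior muscle from 3 D51 and 3 WT mice were analysed, per the labels' protocols. Raw counts per gene were deposited with exon lengths, and featureCounts 1.6.0 and GRCm38 are named in the submitters' processing notes. The sources used here do not give the aligner, the strand setting or the annotation. Log2 fold changes and adjusted p-values of the authors' deposited table (edgeR 3.30.1 is named in the submitters' processing notes) were quoted only where named. The deposited RPKM were not used: RPKM were computed from scaled counts and the deposited lengths.

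Counts were tested in edgeR 4.0.16 under R 4.3.3 by quasi-likelihood (TMM, default expression filter by group, two-sided, Benjamini-Hochberg adjustment over 14335 genes, called at adjusted p under 0.05). SEs are the absolute log2 fold change over the square root of F. Library totals were 15681945 to 21020353 counts. The 14 alternatives were library size alone, DESeq2 size factors, 2 other filters, DESeq2 1.42.0, limma-voom (limma 3.58.1), the edgeR likelihood-ratio test, a replicate block and each library left out. The test was tried on simulated counts. Every one of the 43 genes could be named. Of other lists, up to 3 called genes per direction with the smallest adjusted p were named, and any further gene is said to be named after its values were seen. The genes and lists were chosen with earlier results of these data known. Coordinates, overlaps and shared 50-base words come from GENCODE M21 (GRCm38), and promoters from RefSeq. Of 131 listed pathway genes, Cgas and Mnda did not match by symbol, and some genes of these lists are not reported here by name. No library repeats another (chi-square per degree of freedom 8.08 to 42.9 within groups). P-values measure only the spread between these libraries.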

Additional observations from a re-analysis of the deposited data

How the results depend on the processing

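Of the 15 genes called higher, 8 held their call in every one of the 14 alternatives in which they were tested, and 7 lost it in at least 1. With 1 library left out, the count higher ranged from 8 (without WT 2, where 9.12% of all genes tested were called higher) to 17 (without D51 6, where 18% were), and the count lower from 0 to 1. The count lower was also 0 under library size alone and in limma-voom. Library-size scaling called 22 higher, the likelihood-ratio test 18, DESeq2 16 and the other alternatives with all libraries 14 or 15. Over all genes tested, those 3 settings called 5394, 2509 and 2270 of 14335 higher, and the others 2158 to 2508 of 12974 to 18709. Among other pathway genes, 38 higher and 3 lower became 64 and 0 under library-size scaling, where 37.6% and 2.33% of all genes tested were called. With 1 library left out they ranged from 23 to 49 higher and from 1 to 3 lower. In those fits 9.12% to 18% of all genes tested were called higher and 4.49% to 14.6% lower. The cause was not tested.

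Signs turned in these uncalled genes when 1 library was left out, with lowest and highest values of -0.14 to 0.0057 in Irf2, -0.29 to 0.15 in Irf5, -0.0128 to 0.44 in Ifit3b, -0.68 to 0.38 in Gbp2, -0.45 to 0.51 in Gbp3, -0.53 to 0.18 in Gbp7, -0.85 to 0.55 in Igtp, -0.34 to 0.34 in Irgm1, -0.58 to 0.44 in Irgm2, -0.52 to 0.30 in Rsad2, -0.35 to 0.11 in Cmpk2 and -0.047 to 0.41 in Xaf1. Under library-size scaling they turned in Irf2 (0.30), Irf5 (0.31), Gbp3 (0.21), Gbp7 (0.0279), Irgm1 (0.25), Irgm2 (0.0786), Rsad2 (0.19) and Cmpk2 (0.32), and in limma-voom in Gbp3 (0.0665) and Irgm1 (0.0187). Library-size scaling also called Stat2 (0.79), Ddx58 (0.93), Trim25 (0.79), Ifit3 (1.42), Irf3 (0.51), Parp14 (0.69) and Bst2 (1.10). DESeq2 called Trim25 (0.42), Ifit3 (1.04) and Bst2 (0.74), the likelihood-ratio test Ddx58 (0.56), Trim25 (0.43) and Bst2 (0.74), and limma-voom Zbp1 (2.28).

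Deviations of libraries with the same replicate number correlated at r = 0.35, -0.01 and 0.06, so the numbers do not pair them. With the replicate block 15 genes were called higher and 1 lower (Ifih1 lost, Bst2 gained), and 44 and 5 other pathway genes. In that fit 2508 of all 14335 genes tested were called higher and 1960 lower. Not every library correlated best with its own number. Low counts limit Oas3, Mx1, Oasl1, Oas1a, Zbp1, Isg15 and Mx2, with 5, 19, 20, 30, 37, 38 and 38 counts over the WT libraries.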
